A study of Homo sapiens with 17 samples.

Results

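The regions described here are the eCLIP peaks on the protein-coding part of the mitochondrial heavy-strand transcript. They are the peaks on the plus strand of chromosome M (hg19) whose midpoint lies in 1 of 9 coding intervals, a choice that used position and no measured value. Of 389788 peaks deposited in 11 libraries, 732 met this rule. They were 5 to 163 nt long with a median of 38 nt, each lay wholly inside its interval, and all 9 intervals held peaks in all 11 libraries.

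The study asked where on RNA 6 candidate RNA-binding proteins contact their targets in 293T cells, a line derived from human embryonic kidney. In eCLIP, ultraviolet light crosslinks RNA to bound protein, immunoprecipitation recovers 1 protein with its RNA fragments, and the fragments are sequenced beside a size-matched input (RNA of the same gel window taken without immunoprecipitation). All libraries came from crosslinked, otherwise untreated 293T cells, and they differed in the protein recovered. AIFM1, NUMA1, RANGAP1, VIM and ZNF184 had 2 eCLIP libraries each and RNF219 had 1. The folds of both libraries of a protein were taken over 1 common input and share its error. The labels call the replicates biological and say no more about the cultures. A p-value of 1 protein against the others therefore measures the spread between these libraries. A p-value over 6 proteins measures the spread between their means. AIFM1 is a flavoprotein of the mitochondrial intermembrane space, NUMA1 organises spindle poles, RANGAP1 activates the GTPase of the small protein Ran, RNF219 (also OBI1) is a ubiquitin ligase acting at replication origins, VIM is the intermediate filament vimentin and ZNF184 is a zinc finger protein.

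The heavy-strand transcript of human mitochondria is a long polycistronic RNA. Cleavage at the tRNAs that lie between most of the coding sequences releases the mRNAs and rRNAs. The mRNAs have no introns and little or no untranslated sequence, and each encodes a core subunit of oxidative phosphorylation. ND1, ND2, ND3, ND4L, ND4 and ND5 belong to complex I (NADH dehydrogenase), CYB to complex III, CO1, CO2 and CO3 to complex IV (cytochrome c oxidase), and ATP6 and ATP8 to ATP synthase. ND4L with ND4, and ATP8 with ATP6, are translated from shared mRNAs with overlapping reading frames. ND4L and ND4 share 1 interval here, and ATP8, ATP6 and CO3 share another, so CO3 was not measured apart from the ATP synthase genes. ND6, the remaining complex I subunit of this genome, is encoded on the other strand and is not a member.

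Among complex I genes, ND1 (3308 to 4264) held 74 peaks, ND2 (4472 to 5513) 59, ND3 (10061 to 10406) 27, ND4L/4 (10472 to 12139) 120 and ND5 (12339 to 14150) 110. CYB (14749 to 15889) held 80. Among complex IV genes, CO1 (5906 to 7447) held 97 and CO2 (7588 to 8296) held 56. The interval of ATP8, ATP6 and CO3 (8368 to 9992) held 109. Per kb and library the number ran from 5.15 in ND2 to 7.18 in CO2. Each list gave 39 to 91 members, which covered 15.5% to 30.3% of the interval bases. Peak numbers follow where a caller placed peaks and are not a measure of binding. The values compared below are the authors' log2 fold of each peak over its input.

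The mRNA peaks lay above input in the AIFM1 and RNF219 libraries and mostly below it in the other proteins. The median log2 fold over the mRNA peaks was 1.20 in AIFM1 replicate 1 (39 peaks) and 1.34 in replicate 2 (58 peaks). RNF219 had a median of 2.10 over 72 peaks. The medians were -0.13 and -0.34 in ZNF184 (83 and 87 peaks), -0.47 and -0.50 in VIM (43 and 46 peaks), -0.52 and -0.40 in NUMA1 (91 and 80 peaks) and -0.50 and -0.78 in RANGAP1 (70 and 63 peaks). The 3 libraries of AIFM1 and RNF219 therefore stood above the other 8 without overlap of their medians.

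**Figure D1:**
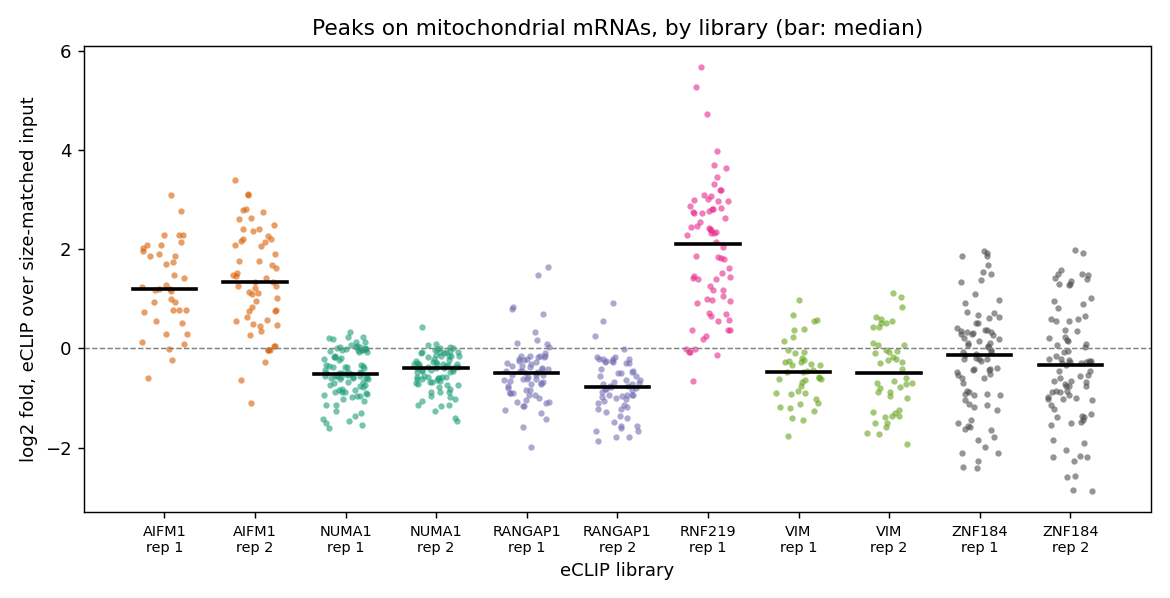
Each point is 1 peak on a mitochondrial mRNA, the vertical axis is the authors' log2 fold of eCLIP over size-matched input, and the bar is the library's median. The AIFM1 and RNF219 medians lie between 1.20 and 2.10, and the medians of the other 8 libraries lie below 0.

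AIFM1's mean of library medians was 1.27 ± 0.10 (SD, n = 2), and that of the 9 remaining libraries was -0.17 ± 0.87 (SD). The difference was 1.44 (exact permutation test, 2-sided, p = 0.0545, adjusted over 6 proteins 0.273), with both AIFM1 libraries above 8 of the 9 others. RNF219 exceeded the mean of the others by 2.21 (exact permutation p = 0.0909, adjusted 0.273), and its median was above those of all 10 other libraries. The smallest p this design allows is 0.0182 for a protein with 2 libraries and 0.0909 for RNF219. Each test of 1 protein against the others, here and below, shuffles the libraries singly. The 2 libraries of a protein share an input and are not independent, so these p-values can be too small. RANGAP1 differed from the others by -0.90 (exact permutation p = 0.145, adjusted 0.291). VIM, NUMA1 and ZNF184 differed from the others by -0.70, -0.67 and -0.40, with adjusted exact permutation p of 0.524, 0.524 and 0.836. No protein's difference passed 0.05 after adjustment, and a single protein at the smallest p could not have passed on its own.

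The share of mRNA peaks above input was read against each whole list. In AIFM1, 36 of 39 (92.3%) and 52 of 58 (89.7%) mRNA peaks were above input, and over all peaks of these lists the share was 88.1% and 80.0%. The AIFM1 shares therefore lay near those of the whole lists. RNF219 had 66 of 72 (91.7%), against 78.4% of its whole list. In the remaining proteins the mRNA peaks were far below their lists. NUMA1 had 13 of 91 (14.3%) and 5 of 80 (6.25%), against 87.8% and 90.5% of all peaks. RANGAP1 had 10 of 70 (14.3%) and 3 of 63 (4.76%), against 90.3% and 92.5%. VIM had 8 of 43 (18.6%) and 13 of 46 (28.3%), against 92.5% and 91.5%. ZNF184 had 37 of 83 (44.6%) and 30 of 87 (34.5%), against 89.3% and 87.2%, the highest shares among these 4 proteins.

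Read numbers behind the peaks differed strongly between proteins, and they moved with the folds. Whole reads were recovered from the deposited folds, as described in the processing section. The median mRNA peak had 10 and 7 input reads in AIFM1 libraries, 14 in RNF219, and between 47 and 276 in the other libraries. The ratio of input depth to eCLIP depth was 0.534 in AIFM1 replicate 2, 0.701 in RNF219 and 1.22 in AIFM1 replicate 1, and 1.36 to 4.84 elsewhere. In AIFM1 and RNF219, folds were higher at peaks with few input reads. Input reads are the denominator of the fold, so this split is not independent of it. The other libraries had 1 to 3 peaks each below 10 input reads, too few to compare. With at least 10 input reads the medians were 0.78 (22 peaks) and 0.78 (25 peaks) in AIFM1 and 1.39 (47 peaks) in RNF219. Below 10 input reads they were 1.87 (17 peaks), 1.77 (33 peaks) and 3.02 (25 peaks). All 3 medians stayed above 0 in the better covered peaks. The part of low input coverage in the remaining difference was not tested.

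Nuclear peaks of the same list give a base that shares the library's depth and input. With at least 10 input reads required of each peak, the mRNA median minus the median of peaks off chromosome M was 0.77 and 0.74 in AIFM1 and 2.04 in RNF219. The same difference was -0.82 and -0.84 in NUMA1, -0.99 and -1.38 in RANGAP1, -1.11 and -0.50 in VIM and -0.61 and -0.68 in ZNF184. AIFM1 and RNF219 were again the proteins whose mitochondrial mRNA peaks exceeded the nuclear peaks of their list at this read minimum. It kept 943 and 1169 nuclear peaks in AIFM1 and 1740 in RNF219, from lists of 12042, 31722 and 24624 peaks. AIFM1 was 1.30 above the other libraries (exact permutation p = 0.0727, adjusted 0.273) and RNF219 2.58 above them (p = 0.0909, the smallest its exact permutation test allows, adjusted 0.273). Without the read minimum the AIFM1 values were 0.03 and 0.66 and the RNF219 value was 1.03. The other proteins moved as well, VIM to -2.75 and -2.72, NUMA1 to -1.89 and -1.74, RANGAP1 to -1.74 and -2.20 and ZNF184 to -1.37 and -1.63. With a minimum of 20 reads VIM had -0.58 and -0.09, AIFM1 0.77 and 0.95, and RNF219 1.62. The sign in each library was the same under all 3 settings, and the size was not. Without the minimum, AIFM1 replicate 1 had nearly equal mRNA and nuclear medians (difference 0.03). The nuclear medians of AIFM1 and RNF219 were 1.17, 0.68 and 1.07 over all nuclear peaks, and 0.01, 0.03 and -0.65 with at least 10 input reads.

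A peak is called significant here when its log2 fold is 3 (8-fold) or more and its -log10 p is 3 or more. RNF219 had 13 such mRNA peaks out of 72 (18.1%), against 0.926% of all its peaks. AIFM1 replicate 2 had 3 of 58 (5.17%), against 0.214%. AIFM1 replicate 1 had 0 of 39, which allows a share of up to 7.69%, and 0.216% of its list was significant. The other 8 libraries had 0 significant mRNA peaks, with upper limits between 3.30% and 6.98%. Their whole lists held 1.51% and 0.877% significant peaks in NUMA1, 1.52% and 2.99% in RANGAP1, 5.29% and 4.50% in VIM and 3.15% and 4.82% in ZNF184.

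RNF219's significant peaks were spread over 6 of the 9 units. CO1, the catalytic subunit of cytochrome c oxidase, held 3 of them. The peak at 6678 to 6719, 772 nt into CO1, had the highest fold of all mRNA peaks, with 73 eCLIP reads over 1 input read and a log2 fold of 5.68 (95% Clopper-Pearson interval from 3.15 upward). The peak at 7317 to 7350 had 55 over 1 read and a log2 fold of 5.27 (interval from 2.73 upward). The peak at 6646 to 6664 had 56 over 3 reads and 3.71 (2.09 to 6.03). With 1 to 3 input reads these intervals are wide, and they cover counting error only.

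In the complex I genes, RNF219 had a significant peak in ND4L/4 at 10606 to 10639 with 76 over 2 reads and a log2 fold of 4.74 (2.83 to 7.81). A further ND4L/4 peak at 11749 to 11790 reached 3.07, and ND5, a proton-pumping subunit of the membrane arm, had peaks at 12610 to 12662 (3.64) and 13258 to 13295 (3.19). The unit of ATP8, ATP6 and CO3 held 4 significant peaks, at 8452 to 8493 (3.31), 8510 to 8548 (3.09), 8687 to 8727 (3.99) and 9604 to 9640 (3.47). CO2, the subunit that receives electrons from cytochrome c, had 1 at 8050 to 8079 (3.19), and CYB had 1 at 15129 to 15180 (3.02). ND1, ND2 and ND3 held 0 significant RNF219 peaks, out of 8, 5 and 2.

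The other libraries were read at the same 13 places. Neither AIFM1 library had a peak overlapping any of them by at least 1 nt. NUMA1 had peaks at 4 and 3 of them, RANGAP1 at 3 and 2 and VIM at 1 and 1, and each of those peaks was below input. ZNF184 had peaks at 7 and 9 of the places, of which 6 and 4 were above input. Its highest folds there were 1.34 and 1.59, both at 6678 to 6719 in CO1, where its libraries had 132 reads over 71 and 159 over 81. Both libraries of ZNF184 thus had an enriched peak at the RNF219 maximum in CO1, below the threshold of 3. For scale, all 72 RNF219 mRNA peaks covered 3030 bases. Of these, AIFM1 peaks covered 843 and 1132, NUMA1 peaks 1499 and 1400 and RANGAP1 peaks 1478 and 1452. VIM peaks covered 880 and 1058 of them and ZNF184 peaks 1826 and 2064. Whether the 13 places differ from RNF219 peaks at large was not tested.

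The significant AIFM1 peaks lay at other positions. In replicate 2 they were in CO1 at 6226 to 6283, with 118 over 6 reads and a log2 fold of 3.39 (2.23 to 4.87), and at 6284 to 6309, with 97 over 6 reads and 3.11 (1.94 to 4.59). The last was in ND1 at 3874 to 3921, with 48 over 3 reads and 3.10 (1.46 to 5.42). Replicate 1 had a CO1 peak over 6220 to 6303 with a log2 fold of 2.78 from 51 over 9 reads. At 6284 to 6309 it had 2 peaks, this one and a lower one, with a mean log2 fold of 2.41. At the ND1 place replicate 1 had 2.28 from 12 over 3 reads. Its folds at these places were enriched and short of the threshold. At the ND1 place RNF219 had 0.92, and NUMA1, RANGAP1 and VIM peaks had -1.41 to -0.30. At both CO1 places RNF219 had 1.06. Peaks of the other proteins there had -1.57 to 0.55, the highest in ZNF184 replicate 2.

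**Figure D2:**
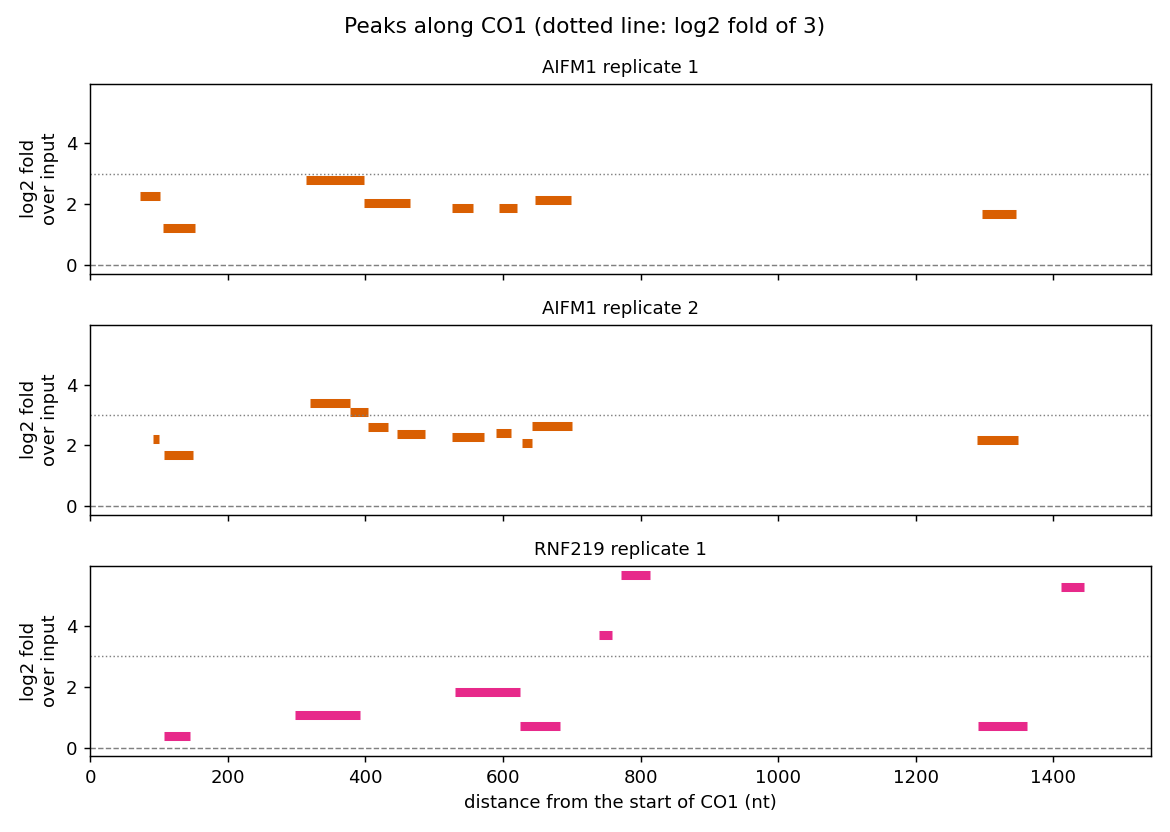
Each bar is 1 peak, placed by its distance in nt from the start of CO1 (horizontal axis) and by its log2 fold over input (vertical axis), for both AIFM1 libraries and RNF219. AIFM1's highest CO1 folds, 2.78 and 3.39, lie at a stretch where RNF219 is lower, and RNF219's 3 peaks of 8-fold or more lie where AIFM1 has no peak.

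The AIFM1 and RNF219 peaks overlapped in part, and the split by overlap went opposite ways in the 2 proteins. RNF219 peaks that overlapped an AIFM1 peak (40 of 72) had a median log2 fold of 1.11 and held 0 significant peaks. The 32 that did not had a median of 2.83 and held all 13. The overlapping peaks had a median of 20.5 input reads and the others 6. AIFM1 peaks that overlapped an RNF219 peak had medians of 1.24 (29 peaks) and 1.68 (37 peaks), and those that did not had 0.50 (10 peaks) and 1.02 (21 peaks). The overlapping AIFM1 peaks of replicate 2 held all 3 of its significant peaks. RNF219's folds were thus lower and AIFM1's higher where the peaks of both overlapped. On the 843 bases that peaks of both AIFM1 replicate 1 and RNF219 covered, the median difference of RNF219 minus AIFM1 was -0.67. On the 1132 bases shared with replicate 2 it was also -0.67. Over CO1 the difference was -0.98 and -1.45, with AIFM1 above RNF219 at each shared base. In ND4L/4 it was 0.22 and 0.17.

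A comparison over identical bases was added after the data had been seen, because lists with different peaks cover different bases. A peak of all 11 libraries covered 352 mRNA bases. Of these, 132 lay in CO1, where AIFM1 had its highest medians, and 0 in ND3 or ND5, where RNF219 had its highest. They also leave out the 13 significant RNF219 peaks, where AIFM1 had no peak. The order of AIFM1 and RNF219 on these bases therefore does not stand for all their peaks. Over the 352 bases the median log2 fold was 1.28 and 2.17 in AIFM1 and 0.70 in RNF219, and from -0.76 to -0.34 in the other 8 libraries. Both AIFM1 libraries were higher there than the 9 others, by 2.12 on average (exact permutation p = 0.0182, the smallest possible, adjusted 0.109). That test counts libraries with a common input as independent. RNF219 was 0.78 above the others (exact permutation p = 0.364).

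By gene, AIFM1 had its highest medians on CO1 and CO2. Its median log2 fold was 1.95 and 2.37 on CO1 (8 and 11 peaks, all above input) and 2.02 and 2.26 on CO2 (4 and 4 peaks, all above input). CYB followed with 1.42 and 1.56, and the ATP8, ATP6 and CO3 unit with 1.18 and 1.14. The complex I genes had 0.77 and 1.14 on ND1, 0.93 and 0.46 on ND2, 0.28 and 1.18 on ND3 (1 and 2 peaks), 1.01 and 0.71 on ND4L/4 and 0.41 and 0.75 on ND5. In both libraries each complex I median lay below those of CO1, CO2 and CYB, while the order among the complex I genes changed between replicates. Median input reads per peak were 8.5 and 6 on CO1, 8.5 and 10.5 on CO2 and 5 and 5 on CYB. They were 12.5 and 12.5 on the ATP8, ATP6 and CO3 unit, 7 and 9 on ND1 and 7 and 5.5 on ND2. ND3 had 13 and 9.5, ND4L/4 18 and 14 and ND5 11.5 and 10. The part of input coverage in the gene order was not tested.

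RNF219 had another order. Its medians were 2.48 on ND5, 2.46 on ND3, 2.33 on ND4L/4, 2.14 on the ATP8, ATP6 and CO3 unit and 1.99 on ND1. They were 1.53 on CYB, 1.44 on CO1, 1.42 on CO2 and 0.97 on ND2. CO1 was therefore 7th of 9 in RNF219 by its median, although it held that library's highest single peaks. Median input reads per RNF219 peak were 7 on ND5, 9 on ND3, 14 on ND4L/4 and 10.5 on ND1. They were 12.5 on the ATP8, ATP6 and CO3 unit, 16 on CYB, 39.5 on CO1, 14 on CO2 and 17 on ND2. The 2 highest medians thus had the fewest input reads, and the part of input coverage in the order was not tested. Across the 9 genes, Spearman's rho between RNF219 and AIFM1 was -0.65 and -0.23, a description over genes that lie on 1 precursor and are not independent.

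**Figure D3:**
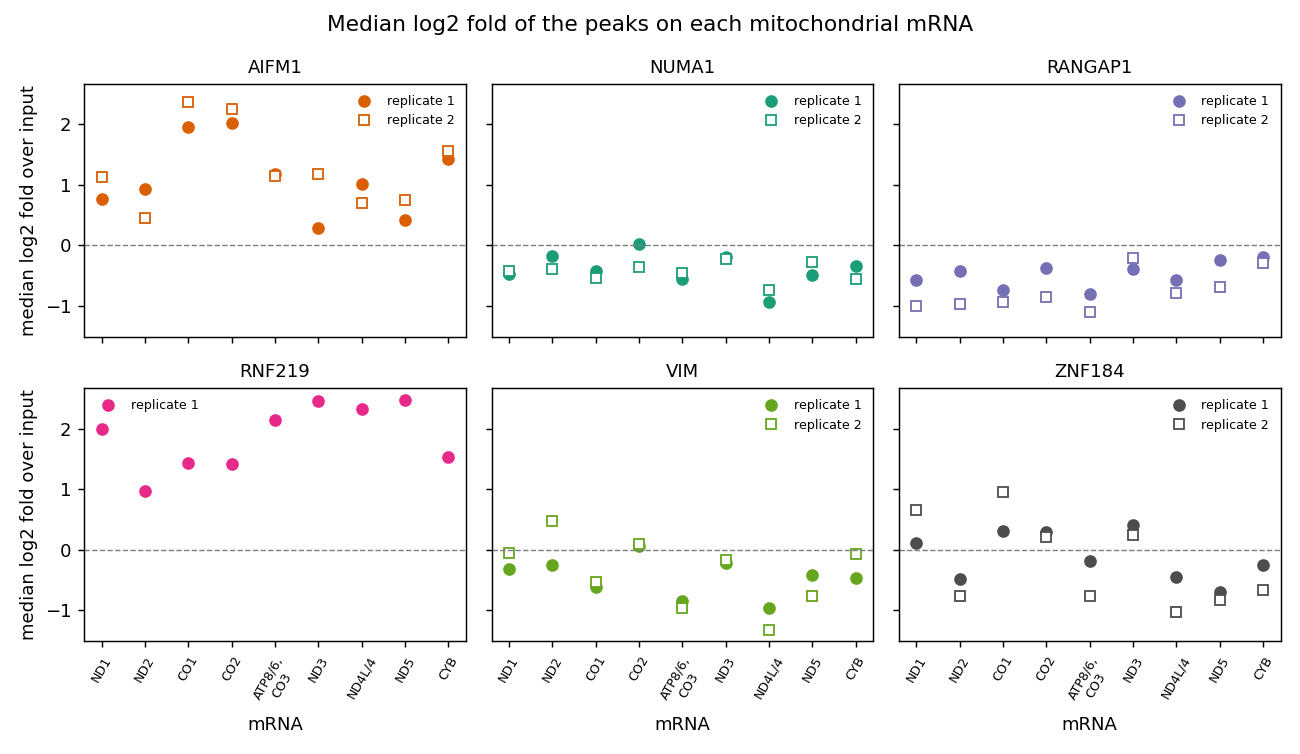
Each panel is 1 protein, each point is the median log2 fold over input of the peaks on 1 mRNA unit in 1 library (filled, replicate 1; open, replicate 2), and genes run along the transcript. AIFM1 is highest on CO1 and CO2 (1.95 to 2.37), while RNF219 is highest on ND5 and ND3 (2.48 and 2.46).

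The proteins that were mostly below input differed among genes too. ZNF184 was above input on CO1 (0.32 and 0.95), ND3 (0.41 and 0.24), ND1 (0.11 and 0.66) and CO2 (0.29 and 0.21). It was below input on ND5 (-0.70 and -0.83), ND2 (-0.49 and -0.76) and ND4L/4 (-0.44 and -1.02). VIM was lowest on ND4L/4 (-0.96 and -1.32) and on the ATP8, ATP6 and CO3 unit (-0.84 and -0.96), and near input on CO2 (0.06 and 0.09). NUMA1 was likewise lowest on ND4L/4 (-0.93 and -0.74), with its other medians between -0.56 and 0.02. RANGAP1 was lowest on the ATP8, ATP6 and CO3 unit in both libraries (-0.81 and -1.10) and closest to input on CYB in replicate 1 (-0.19) and on ND3 in replicate 2 (-0.20).

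Each gene was tested against the other genes within the same library, with 1 value per protein. The ATP8, ATP6 and CO3 unit differed by -0.21 on average (SD 0.21, n = 6 proteins), below the other genes in 10 of 11 libraries, with exact sign-flip permutation p = 0.0625. ND4L/4 differed by -0.33 (SD 0.46), also in 10 of 11 libraries, with exact permutation p = 0.125. CO2 was 0.31 higher (SD 0.60) and ND3 0.25 higher (SD 0.42), each in 9 of 11 libraries, with exact permutation p = 0.25 and 0.219. After adjustment over 9 genes the p of these 4 was 0.5625, and no gene passed. A single gene at 0.03125, the smallest exact permutation p here, would not have passed on its own. The outcome therefore does not show that the genes are alike. The remaining 5 genes had means between -0.27 and 0.16. With each library as a value of its own the mean of the ATP8, ATP6 and CO3 unit was -0.23 and its adjusted exact permutation p 0.0176, a setting that counts replicates with a common input as independent.

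Whether a gene's place differed by protein was tested in 54 comparisons. The smallest p the design allows would not pass adjustment over 54 comparisons on its own, so the values are mainly a description. An unadjusted exact permutation p under 0.05 came up in 4 of them, and the lowest adjusted p was 0.409. The 4 were ZNF184 on ND1 (0.80 above the other libraries, p = 0.0364), VIM on the ATP8, ATP6 and CO3 unit (difference -0.36, p = 0.0364), AIFM1 on ND3 (difference -0.97, p = 0.0182) and AIFM1 on ND5 (difference -0.74, p = 0.0364), all by exact permutation. AIFM1's place on CO1 was 1.04 above that in the other libraries (exact permutation p = 0.0545). Leaving out RNF219 raised the count from 4 to 8, and leaving out VIM replicate 1 lowered it to 2.

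Single places differed in side between proteins. Highest and lowest places of a protein are by the mean of its libraries, among places with a peak in each of them. A place at the 3′ end of ND2, 5426 to 5484, was the highest of RANGAP1 (1.64 and 0.91) and of NUMA1 (0.05 and 0.43). NUMA1 replicate 1 alone had a higher peak, 0.33 at 9910 to 9947. AIFM1 was near input there (0.09 and -0.03), VIM had -0.25 and 1.03, and ZNF184 was well below input (-1.59 and -1.56). In ND4L/4, the place 11988 to 12036 was the lowest of VIM (-1.76 and -1.94) and of ZNF184 (-2.41 and -2.87), while AIFM1 was above input at 1.20 and 0.95. At the start of ND5, 12359 to 12418 was the lowest place of AIFM1 (-0.60 and -1.11) and of RNF219 (-0.66), and ZNF184 had -2.40 and -2.19. That place lay below input in each of these libraries, also in the proteins that were enriched on most mRNA peaks.

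Other extremes were held by 1 protein. ZNF184's highest place was at 9849 to 9881 in the ATP8, ATP6 and CO3 unit (1.98 and 1.36). VIM's was at 15039 to 15068 in CYB, with 0.56 and 0.55. NUMA1 was lowest at 11743 to 11788 in ND4L/4 (-1.57 and -1.47), which overlaps the significant RNF219 peak at 11749 to 11790. RANGAP1 was lowest at 8645 to 8686 in the ATP8, ATP6 and CO3 unit (-2.00 and -1.79), where RNF219 had 2.82. These places were taken as the highest and lowest of each protein, so their extremes are descriptions.

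Replicates of a protein gave close folds where their peaks overlapped, bearing in mind that they share an input. The median absolute difference of log2 fold was 0.40 over 44 overlapping pairs in AIFM1, 0.16 over 93 in NUMA1, 0.29 over 63 in RANGAP1, 0.29 over 33 in VIM and 0.27 over 85 in ZNF184. These differences do not hold the error of the input, and each protein has an input of its own. RNF219 has 1 library and no such check.

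Position along the coding sequence was compared as the 3′-most minus the 5′-most of 3 equal parts. The difference of medians was -0.18 and -0.57 in AIFM1, -1.01 in RNF219, -0.41 and -0.73 in VIM and -0.36 and -0.52 in ZNF184. It was -0.01 and 0.25 in NUMA1 and 0.37 and 0.52 in RANGAP1. Over 6 proteins the mean was -0.31 ± 0.52 (SD) with exact sign-flip permutation p = 0.25. RANGAP1, whose folds were higher toward the 3′ end in both libraries, was 0.84 above the others (exact permutation p = 0.0182, the smallest possible, adjusted 0.109).

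The other products of the heavy strand are the rRNAs of the mitochondrial ribosome and the tRNAs. The lists held 577 peaks on the 2 rRNAs and 112 on 14 heavy-strand tRNAs. The mRNA peaks lay above the rRNA peaks in 9 of 11 libraries. The difference of medians was 2.77 and 2.40 in ZNF184, whose rRNA medians were -2.90 and -2.74. AIFM1 had 1.77 and 1.72, and RNF219 had 2.20. The difference was smaller in RANGAP1 (0.79 and 0.98) and VIM (0.46 and 0.27). NUMA1 was opposite, with -1.81 and -1.32, and its rRNA medians were 1.29 and 0.92. The mean over 6 proteins was 1.03 ± 1.51 (SD), with exact sign-flip permutation p = 0.156. It was 0.26 per covered base (exact permutation p = 0.594) and 0.43 with at least 10 input reads (p = 0.438), so its size depended on these choices. NUMA1 differed from the other libraries by -3.05 (exact permutation p = 0.0182, the smallest possible, adjusted 0.109).

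The mRNA peaks lay below the tRNA peaks in all 11 libraries. The difference was -0.37 and -1.20 in AIFM1, -1.03 and -1.30 in NUMA1, -0.19 and -0.28 in RANGAP1 and -1.24 and -2.49 in ZNF184. VIM had -3.10 and -4.32 and RNF219 -4.03, and the RNF219 tRNA median was 6.13 over 14 peaks. The mean over 6 proteins was -1.97 ± 1.57 (SD), with exact sign-flip permutation p = 0.03125, the smallest that 6 values allow. Without RNF219 it was -1.55 with exact permutation p = 0.0625, the smallest that the remaining proteins allow. The number of tRNA peaks per library was 3 to 14.

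**Figure D4:**
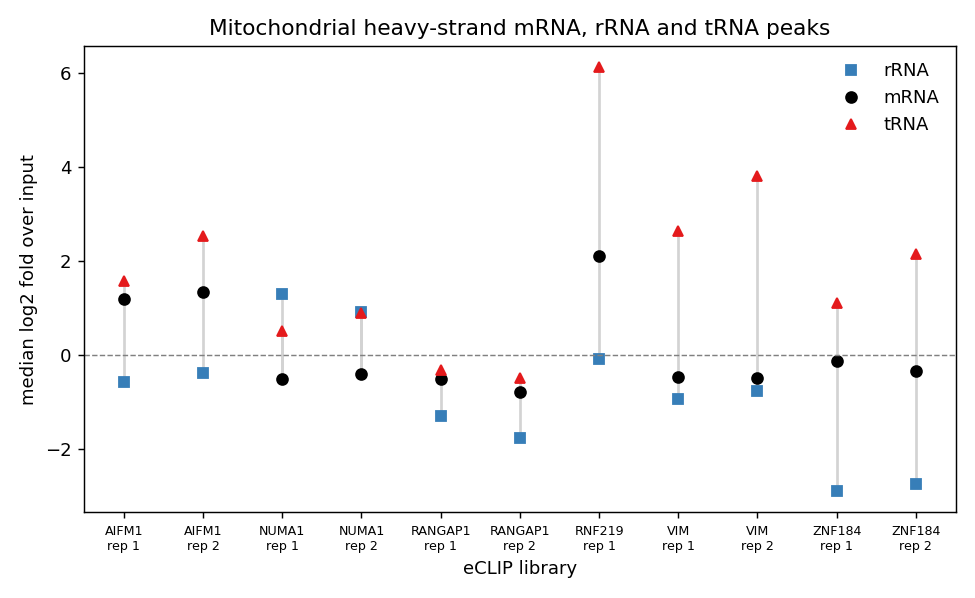
For each eCLIP library (horizontal axis) the points give the median log2 fold over input of peaks on mitochondrial rRNA (square), mRNA (circle) and tRNA (triangle) of the heavy strand. The tRNA median is above the mRNA median in all 11 libraries, and the rRNA median is below the mRNA median except in NUMA1.

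On the opposite strand, 0 peaks of the 11 lists had a midpoint in these 9 intervals. ND6, the light-strand complex I gene, held 36 peaks, 2 to 4 in each library. Its median log2 fold was 2.64 in RNF219, -0.17 and 0.14 in AIFM1 and 1.06 and 0.60 in NUMA1. RANGAP1 had 0.36 and 0.16, VIM 0.52 and -0.51, and ZNF184 -0.92 and -1.57. In AIFM1 the ND6 peaks thus stood near input in both libraries, below the heavy-strand mRNA peaks, while in RNF219 they stood above the mRNA median of 2.10.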

How the data were processed

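Per the submitters' processing notes, cutadapt, STAR, GATK, Picard and SAMtools were used with genome build hg19. Not given in the sources used here: versions, the peak caller, removal of PCR duplicates and pooling of libraries. The authors deposited 1 peak list for each eCLIP library, with a −log10 p and a log2 fold of each peak over the size-matched input. These values were used as deposited and were called per library. Input lists were not used here.

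Groups came from the sample titles. Whole reads were recovered from each fold, as a ratio of integers times 1 depth constant per library, and settled with the p-value. Between 95.1% and 98.9% of the folds of a list were such ratios of small whole numbers, and 98.9% to 99.8% of the p-values matched. Reads were settled for 271 of the 732 members (37.0%). For the rest, mostly below input, read numbers are the least whole numbers with that ratio. Recovery was checked on simulated data. Intervals of folds are Clopper-Pearson. Reads can hold PCR copies, so intervals and upper limits (3 counts of the total) cover counting error only. Total depth is unknown.

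Medians per library were compared by exact permutation tests (2-sided) over libraries, and within libraries by exact sign-flip tests over 6 proteins, with Benjamini-Hochberg adjustment. The tests over libraries count the 2 libraries of a protein as independent, although they share an input. Python 3.11.15, numpy 2.4.6, scipy 1.17.1, pandas 2.3.3 and matplotlib 3.10.9 were used. The intervals of rRNAs, tRNAs and ND6 were written by hand. The text names all 9 units, every significant member, and for each protein its highest and lowest place with a peak in each of its libraries. Members, lists and tests were chosen with earlier results of these data known. Alternatives included covered bases, means, read minimums, thresholds, a replicate block and leaving out each library. Sequences of the peaks were not used here.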

Additional observations from a re-analysis of the deposited data

Results flagged for a closer look

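Proteins whose libraries moved in opposite directions under the same comparison are listed here as means of 2 libraries on the log2 scale. For the median of the mRNA peaks, both AIFM1 libraries were above input (mean 1.27) and both RANGAP1 libraries below it (-0.64). For mRNA minus nuclear peaks with at least 10 input reads, AIFM1 had 0.76 and RANGAP1 -1.18. For mRNA minus rRNA peaks, ZNF184 had 2.58 and NUMA1 -1.56. For the 3′-most minus the 5′-most part of the coding sequences, RANGAP1 had 0.45 and VIM -0.57. Each of these pairs was picked as the highest and lowest protein of its comparison with 2 libraries on the same side of 0, and the difference within the pair was not tested.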

How the results depend on the processing

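Of the alternatives to each result, 391 kept the direction and the side of the threshold, or the count within 1.5 times. A count moved further in 10, the direction reversed in 6, and 1 result became stronger and 1 weaker. In the tests by protein, 1 protein's adjusted p could not pass the threshold on its own. Staying on that side is therefore no sign of stability there. The protein differences in the mRNA median kept their direction under covered bases, means, a minimum of 10 input reads and leaving out each library, where AIFM1 ranged from 1.37 to 1.73 and RNF219 from 2.14 to 2.37. Replicate numbers could pair libraries. Correlations of same-numbered deviations across 9 genes ran from -0.66 to 0.57 and exceeded 0.1 in 3 of 10 protein pairs. With 9 genes of 1 precursor these values cannot tell whether the numbers pair libraries, and the main tests did not pair them. With the replicate block AIFM1 was 1.48 above the others (adjusted exact permutation p = 0.4), and no call changed. Weighted by covered bases, 3 gene differences changed sign: CO1 -0.027, ND5 0.069 and CYB -0.043. CYB, at 0.015 otherwise, ranged from -0.029 to 0.14 with a library left out, and was negative without NUMA1 replicate 1 (-0.014), VIM replicate 2 (-0.029) or ZNF184 replicate 1 (-0.0060). With 1 value per library the ATP8, ATP6 and CO3 difference of -0.23 passed the threshold. The tRNA difference ranged from -2.07 to -1.55 with a library left out. It missed the threshold without RNF219, where the test over the remaining proteins cannot reach it. The count of gene tests with unadjusted p under 0.05 ranged from 2 to 8. A log2 fold of at least 1 gave 5 and 17 significant mRNA peaks in AIFM1, 2 in RANGAP1 replicate 1, 49 in RNF219 and 10 and 13 in ZNF184. A log2 fold of at least 4 left 0 in AIFM1 replicate 2 and 3 in RNF219. The shares of the whole lists at 1 and 4 are not given here, so these counts cannot be read against their lists. With at least 10 input reads, added after seeing the data, the rRNA difference was 0.43 and the tRNA difference -2.13. Per covered base they were 0.26 and -2.01. The comparison with opposite-strand peaks gave no value, since 0 such peaks lie in these intervals, and no member crossed an interval's edge. Input reads, 7 to 14 at the median AIFM1 and RNF219 peak, limit the precision of single folds. The cause of these changes was not tested.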
